A study of Mus musculus with 9 samples.

Results

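The cytosolic ribosomal protein genes encode the protein components of the ribosomes that translate nuclear mRNAs. Members were taken from the count table by symbol: *Rpsa*, *Rplp0*, *Rplp1*, *Rplp2*, *Rps3a1*, *Rps4x* and every *Rps* or *Rpl* gene with a plain number and at most a final a. Of 77 matching genes, 75 were kept because they averaged at least 50 CPM (counts scaled to a common library size) over the 9 libraries, out of 54347 genes listed. There were 30 genes of the small subunit and 45 of the large subunit. Members were therefore selected on their measured level, and levels are given as a description. *Rpl5* was just inside the limit at 50.7 CPM, followed by *Rpl29* at 272 CPM and *Rpl35* at 333 CPM. The genes just outside were *Rpl12* at 35.5 CPM and *Rps27* at 7.79 CPM. All 75 members passed the filter on low counts, as did 13082 genes in all.

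Poly-A-selected RNA was sequenced from 3 mouse haematopoietic lines, with 3 libraries each. Hox-WT and Hox-URE were grown from c-Kit+ bone marrow progenitors of a wild-type mouse and of a UREd/d mouse, both immortalized with an oestrogen-dependent Hoxb8. URE-AML, labelled B22, came from leukaemic blasts of a UREd/d mouse on a C57BL/6 background. In UREd/d mice the upstream regulatory element (URE) is deleted, an enhancer that drives *Spi1* and thereby the transcription factor PU.1. All 3 lines were kept in IMDM with fetal calf serum, IL-3, IL-6, SCF and β-estradiol. There was 1 wild-type line, and each of the 2 UREd/d lines came from another source, so that genotype, leukaemia, source animal and immortalization could not be told apart from the line itself. Whether a line was cultured separately for its libraries is not in the labels, and p-values therefore measure the spread between these libraries, which may be technical.

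The line labels were checked first. *Spi1* was between 96.5 and 110 CPM in the Hox-WT libraries, between 0 and 0.0414 CPM in Hox-URE and between 2.50 and 6.35 CPM in URE-AML. *Hoxb8* was listed at 0 in all 3 URE-AML libraries and was between 61.6 and 141 CPM in the Hox lines. The leukocyte gene *Ptprc* was between 152 and 170 CPM in Hox-WT and at most 0.0429 CPM in both UREd/d lines, while the myeloid granule gene *Ctsg* was at 1599 CPM or more in every library. The other granule genes listed differed widely, with *Mpo* at means of 5042, 5.04 and 192 CPM and *Elane* at 181, 9.29 and 7311 CPM in the order Hox-WT, Hox-URE, URE-AML. The stem cell factor receptor gene *Kit* was at 175, 43.0 and 97.0 CPM in the same order. Of the 7 genes listed as markers of erythroid, lymphoid, stromal and epithelial cells, *Cd3e* was at 0 throughout, the highest was *Hbb-bt* at 15.5 CPM in a Hox-WT library, and 3 passed the filter on low counts. Summed over the 7 genes, the level was between 3.56 and 16.2 CPM in Hox-WT, between 0.838 and 1.74 CPM in Hox-URE and between 1.28 and 11.2 CPM in URE-AML. *Hbb-bt* was lower in both UREd/d lines and *Hba-a1* higher in URE-AML than Hox-WT, and their part in the results was not tested.

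Each ribosome joins a small subunit, which reads the mRNA, to a large subunit, which forms the peptide bonds. Most ribosomal protein mRNAs begin with a terminal oligopyrimidine (TOP) tract, through which their translation follows mTOR signalling, and the proteins are made in matched amounts because unassembled ones are degraded. Mutations of several of these genes cause Diamond-Blackfan anaemia, and loss of one copy of *RPS14* contributes to the anaemia of the 5q- syndrome. Their mature mRNAs have also been copied back into the genome many times, which has left processed pseudogenes across the chromosomes. Reads from such copies and from the gene itself differ at few positions or at none.

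Counts of such copies bear on many of the differences below. Transcripts of all other genes with counts were aligned to those of the 77 matching genes (GENCODE annotation on GRCm38), and 540 loci were at least 95% identical over at least 80% of their length and at least 200 bases. Of these, 529 were annotated as pseudogenes, and 517 of the 529 belonged to 69 of the 75 members. Most of the 517 were close to silent in the table, with 447 under 1 CPM in all 3 lines. However, 38 copies of 27 members reached a mean of 10 CPM in at least 1 line. Of the 38, 19 differed at least 10-fold between lines, a split chosen after their values were seen. All 19 were high in URE-AML: 14 in URE-AML alone and 5 in both UREd/d lines.

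The base differences that separate a gene from its copy are shown for 5 pairs in which the share of counts listed under the copy differed between lines. Each stretch is 60 bases of coding sequence on the sense strand, read from GENCODE transcripts on GRCm38, with the differing bases in capitals. Positions are counted from 1 at the A of the start codon, with the base of the gene first and that of the copy last.
Rps13, coding bases 390 to 449: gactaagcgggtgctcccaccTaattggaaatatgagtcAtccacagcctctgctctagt
Rps13-ps1: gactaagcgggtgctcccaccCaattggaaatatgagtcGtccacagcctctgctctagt
Rps3a1, coding bases 627 to 686: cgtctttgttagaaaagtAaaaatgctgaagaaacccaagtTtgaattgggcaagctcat
Rps3a2: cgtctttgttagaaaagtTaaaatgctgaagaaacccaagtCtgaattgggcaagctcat
Rpl3, coding bases 27 to 86: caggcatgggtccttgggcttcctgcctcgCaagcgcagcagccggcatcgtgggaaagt
Rpl3-ps1: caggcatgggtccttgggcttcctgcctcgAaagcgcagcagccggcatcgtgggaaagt
Rpl34, coding bases 102 to 161: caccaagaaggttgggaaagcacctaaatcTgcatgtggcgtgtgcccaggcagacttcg
Rpl34-ps1: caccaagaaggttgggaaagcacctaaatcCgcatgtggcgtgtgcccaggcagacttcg
Rpl30, coding bases 66 to 125: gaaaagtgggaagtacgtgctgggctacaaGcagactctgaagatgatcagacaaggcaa
Gm12191: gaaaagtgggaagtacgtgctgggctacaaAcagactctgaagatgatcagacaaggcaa

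*Rps13* and *Rps13-ps1* differed at T411C and A429G, the only differences in their 456 coding bases. The stretches of *Rps3a1* and *Rps3a2* differed at A645T and T668C, and those of *Rpl34* and *Rpl34-ps1* at T132C. *Rpl30* and *Gm12191* differed at G96A alone in 348 coding bases, and *Rpl3* and *Rpl3-ps1* at 2 of 1209 aligned coding bases, C57A among them. In the aligned coding part, all 19 copies that differed 10-fold between lines carried at least 1 difference from their gene (median 7, range 1 to 25). Of the other 19 copies above 10 CPM, 12 carried none. Where gene and copy are identical, as for *Rpl5* and *Gm15500* over 1018 bases, how counts divide between them is set by the counting and cannot be read as expression of either. More generally, which locus the RNA came from rests on the deposited counts and was not checked against reads.

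*Rps13* (GRCm38, chr7:116331505-116334195, minus strand), a small subunit protein, was the clearest case. It was listed at 925, 883 and 910 CPM in Hox-WT, at 1130, 895 and 882 CPM in Hox-URE and at 31.0, 20.6 and 23.4 CPM in URE-AML. In the same URE-AML libraries *Rps13-ps1* (chr8:87047689-87048226, plus strand) was at 909, 860 and 846 CPM, against at most 3.78 CPM in any library of the Hox lines. Gene and copies together gave 940, 880 and 869 CPM in URE-AML, which overlapped the Hox-WT sums of 927, 885 and 912 CPM. The log2 fold change of URE-AML versus Hox-WT was -5.18 ± 0.18 (SE) for the gene alone (edgeR adjusted p = 8.06e-09) and -0.02 ± 0.11 with the pseudogene copies added (edgeR adjusted p = 0.911).

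*Rps3a1*, a small subunit protein near the exit of the mRNA channel, showed the same pattern with 2 copies. The gene was between 1892 and 2496 CPM in the 6 Hox libraries and at 520, 417 and 473 CPM in URE-AML. *Rps3a2* (chr14:88123017-88123808) was at 975, 899 and 1039 CPM and *Rps3a3* (chr13:108670603-108671397) at 623, 537 and 612 CPM in URE-AML, with neither above 2.15 CPM in a Hox library. The log2 fold change of URE-AML versus Hox-WT went from -2.09 ± 0.11 to 0.02 ± 0.10 once copies were added (edgeR adjusted p = 0.879).

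*Rpl3*, which shapes the peptidyl transferase centre of the large subunit, and *Rps2*, a small subunit protein at the mRNA entry site, had high counts listed under copies in both UREd/d lines. *Rpl3* was at 1942, 2327 and 2404 CPM in Hox-WT, 629, 645 and 650 CPM in Hox-URE and 473, 433 and 426 CPM in URE-AML. *Rpl3-ps1* (chrX:13202571-13203780) was at 2152, 2273 and 2333 CPM in Hox-URE, at 1519, 1484 and 1522 CPM in URE-AML and at most 0.187 CPM in Hox-WT. The Hox-URE difference from Hox-WT of *Rpl3* was -1.79 ± 0.11 for the gene alone on the log2 scale and 0.38 ± 0.10 with copies added (edgeR adjusted p = 0.0101), so that its direction turned. *Rps2* fell from 3212, 4137 and 4131 CPM in Hox-WT to 2295, 2193 and 2116 CPM in Hox-URE (log2 fold change -0.80 ± 0.12, edgeR adjusted p = 0.000306). With *Rps2-ps10* and its other copies added it was at 0.12 ± 0.12 (edgeR adjusted p = 0.386), and the groups overlapped. In URE-AML *Rps2* alone was at 3323, 3322 and 3082 CPM, which overlapped Hox-WT (log2 fold change -0.24 ± 0.12, edgeR adjusted p = 0.109).

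**Figure D1:**
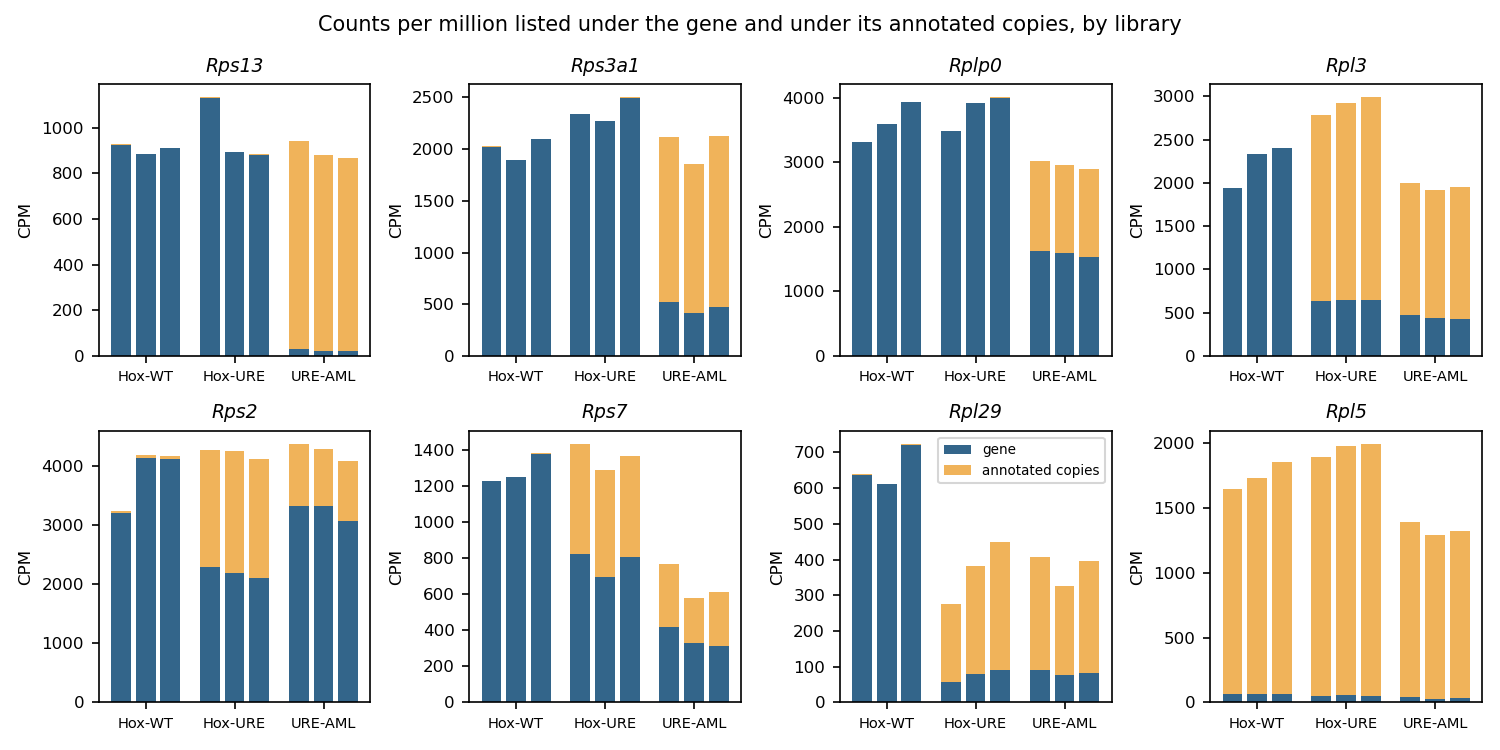
CPM (y axis) listed under 8 ribosomal protein genes (blue) and under their annotated pseudogene copies (orange), 1 stacked bar per library in groups of 3 by line. In URE-AML nearly all *Rps13* counts are listed under copies, while the height of gene and copies together overlaps that of Hox-WT. As sums, *Rps7*, *Rpl29*, *Rplp0* and *Rpl5* remain lower in URE-AML than Hox-WT.

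For other members, adding copies reduced a difference without removing it. *Rpl29*, a small protein of the large subunit, was at 637, 610 and 721 CPM in Hox-WT, 57.5, 79.4 and 90.4 CPM in Hox-URE and 89.7, 78.1 and 81.4 CPM in URE-AML. With *Gm8210* (chr1:43189156-43189638) and the other copies added, its log2 fold change from Hox-WT was -0.83 ± 0.17 in Hox-URE (edgeR adjusted p = 0.00193) and -0.80 ± 0.17 in URE-AML (edgeR adjusted p = 0.00203), with no overlap of the sums in either case. *Rps7*, a small subunit protein mutated in Diamond-Blackfan anaemia, was at 1227, 1248 and 1380 CPM in Hox-WT and 416, 329 and 314 CPM in URE-AML. Its log2 fold change of URE-AML versus Hox-WT went from -1.86 ± 0.13 to -0.98 ± 0.12 (edgeR adjusted p = 6.04e-05), whereas that of Hox-URE went from -0.73 ± 0.13 to 0.08 ± 0.12 (edgeR adjusted p = 0.579). *Rpl34*, of the large subunit, went from -2.15 ± 0.08 to -0.74 ± 0.08 in URE-AML versus Hox-WT (edgeR adjusted p = 2.32e-05).

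Given these shifts, each comparison is reported for the genes alone and with pseudogene copies added. A gene was called at a Benjamini-Hochberg adjusted p below 0.05 and a fold change above 1.5 in edgeR's quasi-likelihood test. For Hox-URE versus Hox-WT, 4 members were called higher, where 21.3% of all genes tested were, and 4 lower, where 15.9% were. With copies added these counts were 4 (21.5% of genes) and 1 (16.0%). In URE-AML versus Hox-WT, no member was called higher (23.0% of genes) and 20 lower (20.2%), or none (23.0%) and 12 (20.3%) with copies added. In URE-AML versus Hox-URE, no member was called higher (20.3%) and 28 lower (22.4%), or none (20.3%) and 24 (22.5%) with copies added. At an unadjusted edgeR p below 0.05 alone, 1 member was higher in each of the latter comparisons before copies were added, and DESeq2 also called 0 higher in both. The comparisons share libraries and are not independent.

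Differences below the fold threshold were more frequent. On the adjusted p alone, 25 members were higher in Hox-URE than Hox-WT (27.8% of genes) and 5 lower (25.2%). The count of 25 was 12 with library size as the only scaling and 36 with DESeq2. URE-AML had 1 member higher than Hox-WT (29.9%) and 36 lower (27.8%), and 1 higher than Hox-URE (28.9%) and 54 lower (29.1%). These counts are for genes alone. With copies added they were 28 higher and 1 lower for Hox-URE versus Hox-WT, 1 and 32 for URE-AML versus Hox-WT, and 0 and 52 for URE-AML versus Hox-URE (0 higher also at an unadjusted edgeR p below 0.05). Shares of all genes on the adjusted p alone were not computed with copies added. For genes alone, the 1 member higher in URE-AML than Hox-URE was *Rps2*, at a log2 fold change of 0.56 ± 0.12 alone and 0.01 ± 0.12 with copies. For genes alone, the values of all 3 libraries lay on one side for 59 members lower in URE-AML than Hox-URE, where 31.1% of genes did, and for 41 members lower in URE-AML than Hox-WT (33.2%). Between Hox-URE and Hox-WT, 32 members were higher without overlap (30.9% of genes) and 5 lower (29.4%).

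Levels of the 75 members leaned one way in each comparison. With copies added, the median log2 fold change was 0.24 in Hox-URE versus Hox-WT, with 69 members positive and 6 negative. It was -0.23 in URE-AML versus Hox-WT, with 61 negative, and -0.48 in URE-AML versus Hox-URE, with 70 negative. The median of all genes was 0.00 in each. The 35 members without a copy above 1 CPM, which adding copies could hardly touch, had gene-alone medians of 0.25, -0.22 and -0.44 in the same order. With library size as the only scaling, the median of all genes moved to -0.08 in Hox-URE versus Hox-WT and to 0.11 in URE-AML versus Hox-URE, and the members' medians relative to it were 0.21 and -0.51.

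**Figure D2:**
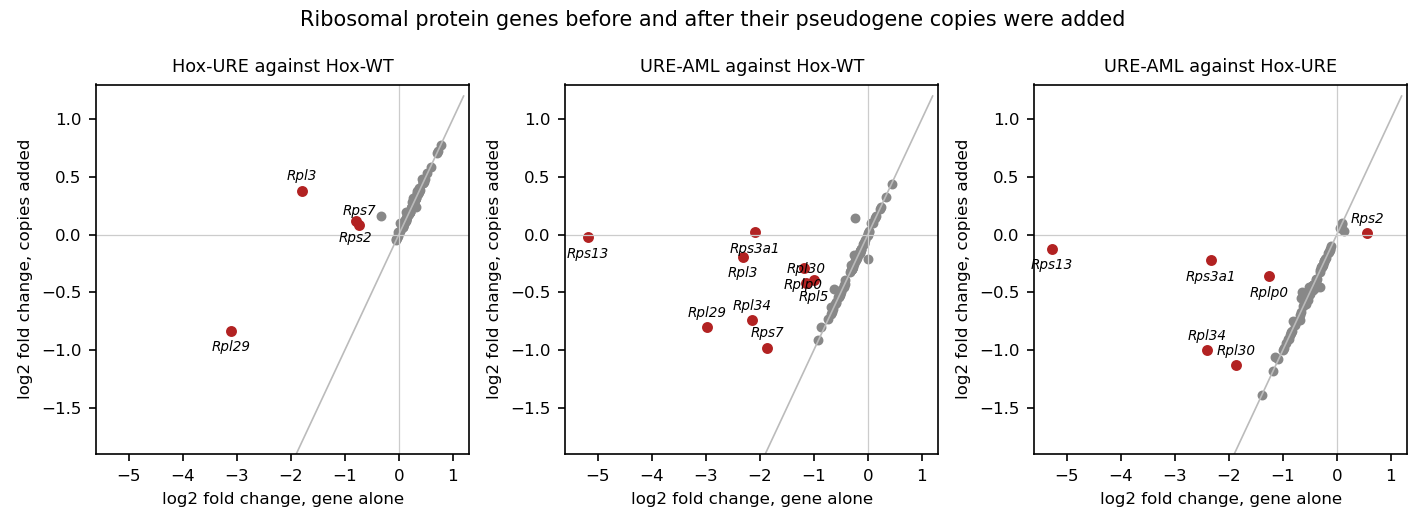
Log2 fold change of the 75 ribosomal protein genes for the gene alone (x axis) and with its pseudogene copies added (y axis), 1 panel per comparison. Grey points lie near the line of equal values and red points, named, moved by more than 0.5; *Rps13* moved most, from -5.18 to -0.02 in URE-AML versus Hox-WT.

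**Figure D3:**
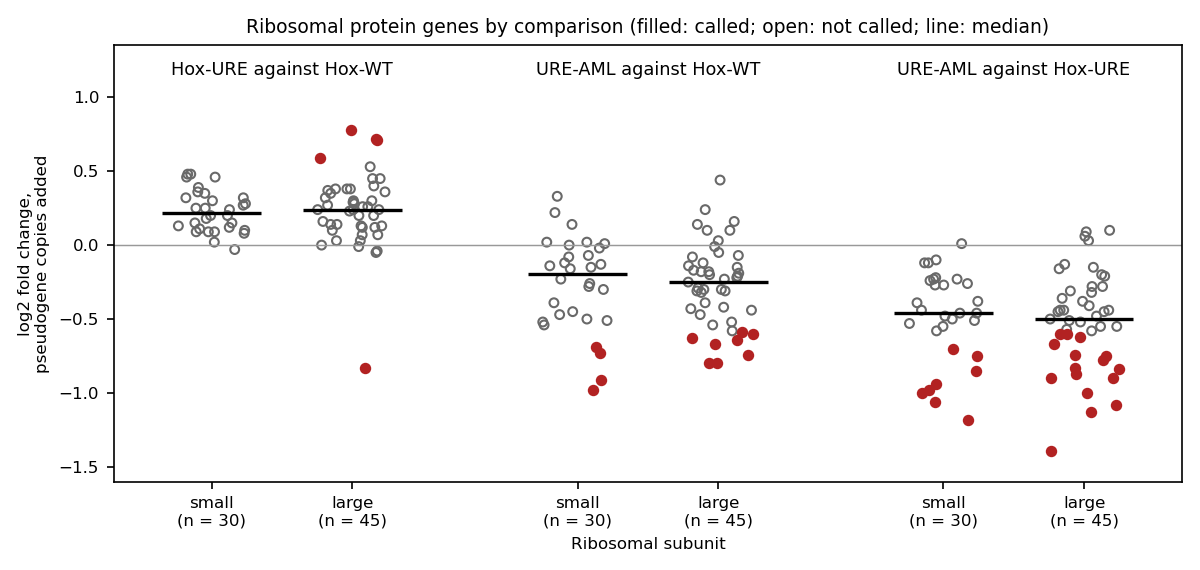
Log2 fold change with copies added (y axis) for the 30 small and 45 large subunit genes in each comparison; filled points were called, open points were not and bars are medians. Both subunits sit above 0 in Hox-URE versus Hox-WT, with medians of 0.22 and 0.24, and below 0 in both URE-AML comparisons.

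The small and large subunits were close to each other throughout. Medians with copies added were 0.22 (small) and 0.24 (large) in Hox-URE versus Hox-WT, -0.20 and -0.25 in URE-AML versus Hox-WT, and -0.46 and -0.50 in URE-AML versus Hox-URE. Called lower in the last comparison were 8 of 30 small and 16 of 45 large subunit genes, where 22.5% of all genes were. For genes alone, the ratio of small to large subunit counts was 0.870 ± 0.00645 (SD, n = 3) in Hox-WT, 0.853 ± 0.0445 for Hox-URE and 0.871 ± 0.0206 for URE-AML. Counts listed under copies are left out of this ratio, which therefore depends on how counts were divided between gene and copy. The lines overlapped in the ratio for genes alone (exact two-sided permutation p = 0.4 for Hox-URE and Hox-WT, 1 for URE-AML and Hox-WT and 0.6 for URE-AML and Hox-URE), and 3 libraries against 3 cannot give less than 0.1.

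Members took 8.33, 8.69 and 9.26% of all counts in the Hox-WT libraries, 8.61, 8.81 and 9.37% for Hox-URE and 7.23, 6.34 and 6.74% for URE-AML. The URE-AML libraries were below all others, with mean differences of -1.99 percentage points from Hox-WT and -2.16 from Hox-URE (exact two-sided permutation p = 0.1 for each, the smallest possible). Hox-URE and Hox-WT overlapped (exact permutation p = 0.6). Pseudogene copies held 0.713 ± 0.0333% of counts in Hox-WT, 1.27 ± 0.0305% for Hox-URE and 1.33 ± 0.0504% for URE-AML (SD, n = 3). Summed with copies, members held 9.47 ± 0.501%, 10.2 ± 0.417% and 8.10 ± 0.498%, with URE-AML again below all other libraries. In bulk RNA, fewer cells expressing a gene and less RNA per cell cannot be told apart.

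**Figure D4:**
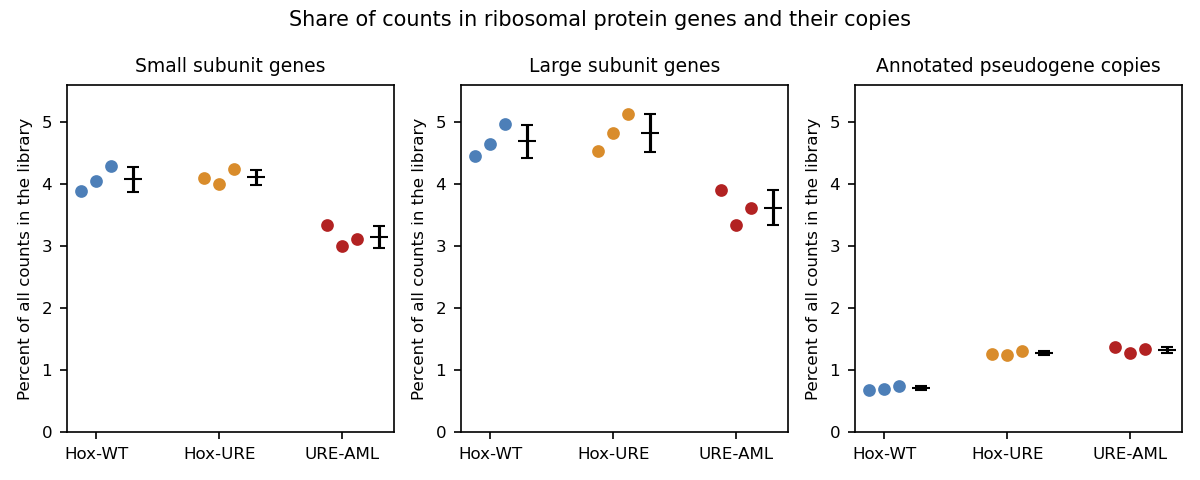
Percent of all counts in a library (y axis) held by small subunit genes, large subunit genes and annotated pseudogene copies, by line; points are libraries and black marks are means ± SD (n = 3). URE-AML lies below both Hox lines for either subunit, while copies hold about 1.3% in both UREd/d lines and 0.713% in Hox-WT.

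Within a line, the same library was often the highest or lowest. Hox-WT library 3 was the highest of its line for 65 of the 75 members and URE-AML library 2 the lowest for 63, with median deviations from the line mean of 0.10 and -0.12 on the log2 scale. Hox-URE library 1 was the lowest of its line for 50 members. Without URE-AML library 2, 7 members rather than 12 were called lower than in Hox-WT with copies added, and 9 without Hox-WT library 3. Without Hox-URE library 1, 8 members rather than 4 were called higher than in Hox-WT. The median coefficient of variation of a member within a line was 6.86% in Hox-WT, 8.45% for Hox-URE and 8.41% for URE-AML.

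*Rpl37*, *Rpl30*, *Rpl36a* and *Rplp2*, all of the large subunit, were called higher in Hox-URE than Hox-WT, with or without copies. *Rpl37* was at 558, 507 and 577 CPM in Hox-WT and 873, 849 and 980 CPM in Hox-URE, a log2 fold change of 0.72 ± 0.11 (edgeR adjusted p = 0.000452). It was lowest in URE-AML, at 384, 298 and 347 CPM, so that the lines did not overlap. *Rpl30*, a killing control in the shRNA screen of the study, was at 735, 717 and 723 CPM in Hox-WT and 1307, 1144 and 1100 CPM in Hox-URE. In URE-AML, *Rpl30* gave 326, 310 and 345 CPM, and 538, 516 and 570 CPM with *Gm12191* and the other copies, below every Hox library in either form. *Rpl36a* was at 264, 320 and 332 CPM in Hox-WT and 393, 521 and 666 CPM in Hox-URE, the widest spread of the 4, and without Hox-URE library 3 its log2 fold change was 0.57, under the threshold.

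Lower in URE-AML than in both Hox lines, with copies added, were among others *Rps15a*, *Rps14*, *Rpl27*, *Rps7*, *Rpl34* and *Rpl37*. *Rps15a*, of the small subunit, was at 794, 741 and 826 CPM in Hox-WT, 990, 879 and 970 CPM in Hox-URE and 453, 370 and 427 CPM in URE-AML. Its log2 fold change with copies added was -0.91 ± 0.10 versus Hox-WT (edgeR adjusted p = 3.49e-05) and -1.18 ± 0.10 versus Hox-URE (edgeR adjusted p = 5.98e-06). *Rps14*, the gene of the 5q- syndrome, was at 1998, 1925 and 2224 CPM in Hox-WT and 1332, 1241 and 1225 CPM in URE-AML (log2 fold change -0.69 ± 0.10, edgeR adjusted p = 0.000236). *Rps14* has no copy of any weight here, with 100% of its counts listed under the gene in each line. *Rpl27*, mutated in Diamond-Blackfan anaemia, was at 467, 338 and 362 CPM in URE-AML and between 661 and 762 CPM in the Hox lines (log2 fold change from Hox-WT with copies added -0.80 ± 0.12, edgeR adjusted p = 0.000201).

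*Rpl41*, the shortest member at 78 coding bases, went the other way. It was at 860, 1044 and 1158 CPM in Hox-WT and 1465, 1251 and 1435 CPM in URE-AML, without overlap (log2 fold change 0.44 ± 0.16, edgeR adjusted p = 0.0388), under the fold threshold. *Rpl23a*, a large subunit protein at the peptide exit, was also above Hox-WT in every URE-AML library, at 1186, 1103 and 1159 CPM against 920, 944 and 1052 CPM, but did not pass the test (edgeR adjusted p = 0.152). *Rpl7a* was between 1587 and 1793 CPM in URE-AML and between 1492 and 1816 CPM in the Hox lines, and the groups overlapped. Over the 75 members, the Spearman correlation of coding length with the log2 fold change, copies added, was -0.41 for Hox-URE versus Hox-WT, -0.00967 for URE-AML versus Hox-WT and 0.185 for URE-AML versus Hox-URE. These points share libraries and depth and are given as a description.

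The ribosomal stalk, which recruits elongation factors, is built on RPLP0 with RPLP1 and RPLP2. *Rplp0* (chr5:115559467-115563727) was at 3308, 3597 and 3937 CPM in Hox-WT, 3487, 3912 and 4002 CPM in Hox-URE and 1632, 1595 and 1534 CPM in URE-AML. *Gm8730* (chr8:102864845-102865798), 98.74% identical to it, was at 875, 874 and 892 CPM in URE-AML and at most 0.571 CPM elsewhere. With all copies added, URE-AML gave 3018, 2960 and 2900 CPM, still below every Hox library but by a log2 fold change of only -0.29 ± 0.10 versus Hox-WT (edgeR adjusted p = 0.0343), in place of -1.19 ± 0.11. *Rplp2* was at 667, 748 and 770 CPM in Hox-WT, 1070, 1103 and 1111 CPM in Hox-URE and 659, 551 and 626 CPM in URE-AML. It was higher in Hox-URE than Hox-WT by 0.59 ± 0.10 on the log2 scale (edgeR adjusted p = 0.000671). This was close to the fold threshold, and with library size as the only scaling it was 0.48 and no longer called. *Rplp1* overlapped between the Hox lines (log2 fold change 0.12 ± 0.14, edgeR adjusted p = 0.485).

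RPL5 and RPL11 join the 5S RNA in a particle that can bind MDM2, through which p53 responds to faulty ribosome assembly. *Rpl5* was listed at 66.1, 65.8 and 66.9 CPM in Hox-WT, 51.5, 54.7 and 51.9 CPM in Hox-URE and 39.1, 29.2 and 31.4 CPM in URE-AML, the lowest mean of any member over the 9 libraries, although *Rps13* alone was lower in URE-AML. *Gm15500* (chr7:114705217-114706235), identical to it over the aligned bases, held 1581 to 1786 CPM in Hox-WT, 1839 to 1939 CPM in Hox-URE and 1258 to 1348 CPM in URE-AML. Together they gave log2 fold changes of 0.16 ± 0.09 in Hox-URE (edgeR adjusted p = 0.141) and -0.39 ± 0.09 in URE-AML versus Hox-WT (edgeR adjusted p = 0.00353). *Rpl12*, which missed the limit, likewise had *Gm10275* at 1026 to 1614 CPM. *Rpl11* with its copies was between 870 and 968 CPM in URE-AML and between 929 and 1174 CPM in Hox-WT, which overlapped.

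Of the 20 Diamond-Blackfan anaemia genes listed, 19 were members. With copies added, 4 of the 19 were called lower in URE-AML than Hox-WT, where 20.3% of all genes were, and none higher (23.0%), with a median log2 fold change of -0.21. Against Hox-URE, 4 were called lower (22.5% of all genes) and all 19 had negative log2 fold changes, with a median of -0.45. None was called in Hox-URE relative to Hox-WT (7 higher and 0 lower at an unadjusted edgeR p below 0.05), where 21.5% of all genes were called higher and 16.0% lower and the median was 0.16. *Rps24* was among those not lowered versus Hox-WT, at 640, 704 and 794 CPM in Hox-WT and 942, 792 and 949 CPM in URE-AML (log2 fold change 0.33 ± 0.16, edgeR adjusted p = 0.102). The remaining gene, *Rps27*, was at 22.3, 14.6 and 2.40 CPM in the Hox-URE libraries, while its protein-coding paralog *Rps27rt*, identical over 341 aligned bases, was between 346 and 433 CPM there.

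Per kilobase of coding sequence, and over all 9 libraries, *Rpl41* was highest at 15954 CPM per kb, followed by *Rplp1* at 5052, *Rpsa* at 4218, *Rps14* at 4197 and *Rps29* at 4051 CPM per kb. *Rps2* rose from 3503 to 4662 CPM per kb with copies added, ahead of *Rpsa*, the gene of the laminin receptor protein of the small subunit. *Rpl5* went from 56.7 to 1877 CPM per kb. Untranslated bases were not counted in the length, which raises the value of short genes.

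Of 14 paralogs and other ribosomal proteins outside the rule, 10 were tested. Apart from *Rps3a2* and *Rps3a3*, which are annotated as pseudogenes and described above, none was called when URE-AML was set versus Hox-WT. Of all genes, 23.0% were called higher and 20.2% lower in that comparison. *Rpl22l1*, a paralog of *Rpl22*, was at 99.5, 127 and 119 CPM in Hox-WT and 169, 185 and 202 CPM in Hox-URE. It was called higher in Hox-URE (log2 fold change 0.69 ± 0.12, edgeR adjusted p = 0.000922), as were 21.3% of all genes. *Rack1*, a scaffold on the small subunit, was at 2575, 2513 and 2752 CPM in Hox-WT and 1861, 1760 and 1754 CPM in URE-AML (log2 fold change -0.54 ± 0.10, edgeR adjusted p = 0.000842). *Fau*, *Rack1* and *Rpl22l1* were called lower in URE-AML than Hox-URE, as were 22.4% of all genes.

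Translation factors and other TOP mRNAs were mixed in Hox-URE, with a median below 0, 7 log2 fold changes positive and 17 negative versus Hox-WT. Of 24 such genes, 1 was called higher (21.3% of all genes) and 2 lower (15.9%) than in Hox-WT, with a median log2 fold change of -0.19 (medians of 0.24 for members and 0.00 for all genes). The gene called higher was *Tpt1* (log2 fold change 0.60 ± 0.08, edgeR adjusted p = 0.000169), which encodes a small growth-related protein. On the adjusted p alone, 3 were higher (27.8% of all genes) and 9 lower (25.2%). *Eef2* (log2 fold change 0.35 ± 0.10) and *Eif3h* (0.57 ± 0.11) were among those higher. In URE-AML versus Hox-WT, 8 were called lower (20.2% of all genes) and none higher (23.0%), with a median of -0.41, and *Tpt1* was higher below the fold threshold (log2 fold change 0.27 ± 0.08, edgeR adjusted p = 0.016). *Eef1a1*, which carries aminoacyl-tRNA to the ribosome, was at 9543, 12093 and 12584 CPM in Hox-WT and 8159, 6576 and 6634 CPM in URE-AML (log2 fold change -0.68 ± 0.16, edgeR adjusted p = 0.00369). Against Hox-URE, 2 were called higher (20.3%) and 6 lower (22.4%), with a median of -0.32. The list was not split by whether an mRNA carries a TOP tract. Values of this list and of those that follow are for genes alone, and copies of their genes were not searched for.

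Ribosome biogenesis factors, which make and process ribosomal RNA, had negative medians in both UREd/d lines. Of 36, 9 were called lower in Hox-URE than Hox-WT and none higher (1 at an unadjusted edgeR p below 0.05), where 15.9% and 21.3% of all genes were, and 35 had negative log2 fold changes, with a median of -0.45. *Npm1*, a nucleolar chaperone, was listed at 2402, 2047 and 2399 CPM in Hox-WT, 1101, 988 and 1086 CPM in Hox-URE and 1217, 955 and 1067 CPM in URE-AML. Whether counts of any copies bear on this difference was not tested. *Ddx21*, a nucleolar helicase, was at 327, 255 and 301 CPM in Hox-WT and 89.8, 91.7 and 108 CPM in Hox-URE (log2 fold change -1.61 ± 0.16, edgeR adjusted p = 2.03e-05). In URE-AML, 7 were called lower than in Hox-WT (20.2% of all genes) with a median of -0.43, whereas versus Hox-URE 2 were called higher (20.3%), none lower (22.4%, and 2 at an unadjusted p below 0.05), and the median was 0.03.

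Genes of the mitochondrial ribosome, which translates the mitochondrial genome, were taken by symbol alone (*Mrps* or *Mrpl* and a number). The role of each product, that of *Mrps36* included, was not checked. The 78 genes had a median of -0.34 in Hox-URE relative to Hox-WT, with 2 called higher (21.3% of all genes) and 9 lower (15.9%). The difference of these medians from that of the cytosolic set was not tested. *Mrps36* was the highest, at 43.7, 45.7 and 48.6 CPM in Hox-WT and 123, 143 and 146 CPM in Hox-URE, and *Mrps5* the lowest with a log2 fold change of -0.93 ± 0.21 (edgeR adjusted p = 0.00343). In URE-AML versus Hox-URE the median was 0.26, with 13 called higher (20.3% of all genes) and 4 lower (22.4%). Against Hox-WT it was -0.07, with 3 higher (23.0%) and 5 lower (20.2%).

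**Figure D5:**
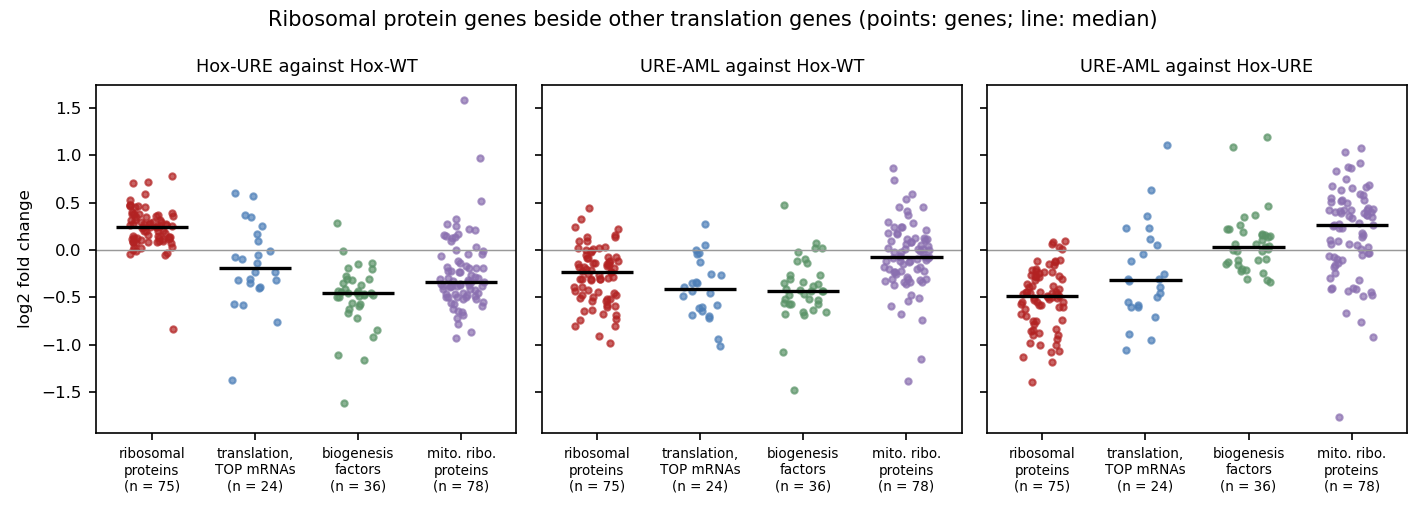
Log2 fold change (y axis) of the ribosomal protein genes, with copies added, beside translation factors and other TOP mRNAs, ribosome biogenesis factors and mitochondrial ribosomal proteins in each comparison; points are genes and bars are medians. In Hox-URE versus Hox-WT the cytosolic set has a median of 0.24 and the other 3 sets have medians of -0.19, -0.45 and -0.34. Values of the other 3 sets are for genes alone, since copies of their genes were not searched for.

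Of 14 listed regulators of TOP mRNAs, 13 were tested. In Hox-URE versus Hox-WT, *Eif4ebp1*, an inhibitor of cap-dependent translation, was called higher (log2 fold change 0.77 ± 0.15, edgeR adjusted p = 0.00144), as were 21.3% of all genes, while *Eif4ebp2* and the S6 kinase family gene *Rps6ka3* were called lower, as were 15.9% of all genes. *Rps6ka3* and *Rps6kb2* were called lower in URE-AML than Hox-WT, where 20.2% of all genes were, and none was higher (23.0%), also at an unadjusted edgeR p below 0.05. Set versus Hox-URE, *Rps6kb2* and *Eif4ebp1* were called lower in URE-AML (22.4% of all genes) and none higher (20.3%, and 1 at an unadjusted p below 0.05). The medians of the 13 genes were -0.20, -0.34 and -0.25 for Hox-URE from Hox-WT, URE-AML from Hox-WT and URE-AML from Hox-URE. *Larp1*, which binds the TOP tract, was between 292 and 347 CPM in Hox-WT, between 206 and 246 CPM in Hox-URE and between 233 and 286 CPM in URE-AML.

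RefSeq promoter windows (GRCm38.p6) were found for 55 of the 75 members. In 25 of the 55 (45.5%), a C followed by at least 4 bases that were each C or T began within 5 bases of the annotated start on the sense strand, against 21.2% of the 27025 genes with a window. The share was 36.8% for translation factors and other TOP mRNAs, 24.6% for mitochondrial ribosomal proteins and 19.4% for ribosome biogenesis factors. The windows of 4 genes described above follow, 2 with such a tract and 2 without, from 15 bases before the start to 15 bases from it, with the tract in capitals.
Rplp2, chr7:141447636-141447665, plus strand: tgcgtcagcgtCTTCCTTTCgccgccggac
Rps15a, chr7:118116133-118116162, minus strand: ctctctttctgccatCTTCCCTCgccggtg
Rpl37, chr15:5116598-5116627, plus strand: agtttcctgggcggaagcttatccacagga
Rplp0, chr5:115559452-115559481, plus strand: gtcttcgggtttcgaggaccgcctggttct

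*Rplp2* and *Rpl37* were both higher in Hox-URE than Hox-WT, although the tract was matched in the window of *Rplp2* and not in that of *Rpl37*. A window without a match says only that these letters are not near this annotated start.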

How the data were processed

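Per the labels, poly-A RNA was made into stranded libraries, and the authors quantified reads with Salmon on GRCm38 and summed transcripts to genes. What was deposited is a table of estimated counts, already whole numbers, so that rounding changed nothing. The transcript release and any length scaling are not given in the sources used here. Totals were 20331064 to 28588718 counts per library and limit precision for rare genes. CPM values are counts over the library size times its TMM factor (0.938 to 1.04).

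All 9 libraries were fitted in edgeR 4.0.16 (R 4.3.3) with line as the only factor, filterByExpr at a minimum count of 10 and quasi-likelihood F tests. Transcripts of GENCODE M21 were aligned with BLAST 2.17.0, and counts of annotated pseudogene copies were summed with their gene for a second fit. Of 54347 rows, 253 had no match in that annotation. Shares were compared by exact permutation with scipy 1.17.1. Scripts were tested on simulated data. DESeq2 1.42.0 and other alternatives appear in the closing section.

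Members and gene lists were chosen with earlier results of these data known. Named genes were the 6 highest and 6 lowest members by fold change in each comparison, the 5 highest per length, the genes nearest the level limit, fixed functional lists, and copies with the highest levels or the largest shift of their share. Lists of other genes covered paralogs, translation factors, ribosome biogenesis, TOP regulators and mitochondrial ribosomal proteins, from which tested genes past the adjusted p were named. The 10-fold split of copies and the copies *Gm10275*, *Gm12191*, *Rpl34-ps1* and *Gm8210*, and *Rps20*, were chosen after values were seen. A result for 1 listed gene is not reported here.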

Additional observations from a re-analysis of the deposited data

How the results depend on the processing

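For the count of called members in Hox-URE versus Hox-WT, a test against a 1.5-fold change called 0 higher and 2 lower, and dropping the fold threshold called 25 higher (12 with library size alone and 36 with DESeq2). Adding pseudogene copies, all near-identical copies or copies at 90% identity left 1 lower in each case, and left 12 lower in URE-AML versus Hox-WT, where the 1.5-fold test called 11 lower and no fold threshold 1 higher and 36 lower. In URE-AML versus Hox-URE, no fold threshold gave 1 higher and 54 lower, and library size alone gave 1 higher.

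All near-identical copies and the 90% limit were settings chosen after seeing the data. Leaving out 1 library gave 2 (without Hox-URE replicate 3) to 7 (without Hox-URE replicate 1) higher and 4 lower in Hox-URE versus Hox-WT, 0 higher and 14 to 24 lower in URE-AML versus Hox-WT, and 0 to 1 higher and 25 to 35 lower in URE-AML versus Hox-URE. With copies added these ranges were 3 to 8 higher and 1 lower, 0 higher and 7 to 17 lower, and 0 higher and 21 to 30 lower.

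The same-numbered libraries of 2 lines correlated between 0.01 and 0.271 in their deviations from the line means, over 0.1 in 2 of 9 pairs, so that numbers were not treated as pairs. With the replicate block, the counts were 4 and 4, 0 and 20, and 0 and 28, and with copies added 4 and 1, 0 and 12, and 0 and 24; 8 of 9 same-numbered pairs correlated best with each other, a hint from the data and not the design. The block changed none of these counts, but it did change those on the adjusted p alone. For genes alone these went from 25 higher and 5 lower to 34 and 5 in Hox-URE versus Hox-WT. They went from 1 and 36 to 3 and 38 in URE-AML versus Hox-WT, and from 1 and 54 to 1 and 59 in URE-AML versus Hox-URE.

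Direction turned with pseudogene copies, all near-identical copies and copies at 90% identity for *Rps2* (0.12, 0.13, 0.13), *Rpl5* (0.16, 0.17, 0.16), *Rpl3* (0.38, 0.38, 0.38) and *Rps7* (0.08, 0.08, 0.08) in Hox-URE versus Hox-WT, and for *Rps3a1* (0.02, 0.02, 0.02) in URE-AML versus Hox-WT, where the added counts are the cause by construction. The sign also turned with pseudogene copies, with no adjusted p below 0.05 in either form, for *Rps20* (-0.01 to 0.02) in Hox-URE and for *Rps2* (-0.24 to 0.14) and *Rpl11* (0.01 to -0.21) in URE-AML, each versus Hox-WT. Of the other values of single genes over all settings, 2732 stayed on their side of the call, 72 lost the call and 10 gained it. Direction was not compared for values that missed the adjusted p in both settings.

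With copies, the share of counts was 9.47% (Hox-WT), 10.2% (Hox-URE) and 8.10% (URE-AML). Without copies, the 8.93% of Hox-URE was 9.33% of counts of protein-coding genes and 9.40% of the TMM-scaled size, and leaving out 1 library gave shares of 8.51 to 8.98% (Hox-WT), 8.71 to 9.09% (Hox-URE) and 6.54 to 6.98% (URE-AML). With library size alone, the median of translation factors was -0.29 and that of TOP regulators -0.31 in Hox-URE versus Hox-WT, and -0.21 and -0.13 in URE-AML versus Hox-URE, with all genes shifted by -0.08 and 0.11. Leaving out 1 library gave a median of translation factors of -0.28 to -0.14 in Hox-URE versus Hox-WT. Genes identical to a copy cannot be split at any depth.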
